A study of Mus musculus with 9 samples.

Results

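The genes described here are 10 nuclear genes whose products copy, package and transcribe mitochondrial DNA (mtDNA) or set the expression of those that do: *Tfam*, *Tfb2m*, *Tfb1m*, *Polrmt*, *Polg*, *Polg2*, *Ssbp1*, *Lonp1*, *Nrf1* and *Pprc1*. They were listed by name, and the rule uses no measured value. Each was found among the 55335 entries of the expression tables, and all 10 were among the 13011 genes tested, those whose FPKM averaged 1 or more across the 9 libraries. FPKM counts sequenced fragments relative to gene length and to the library's total, so levels of different genes are compared per length.

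RNA was sequenced from pools of mouse embryos at the 8-cell stage. All embryos came from ICR mice, were made by in vitro fertilization, and received siRNA by injection at the zygote stage before culture in KSOM medium. Control embryos received nontargeting siRNA, MFN1-KD embryos received siRNA against *Mfn1*, which encodes a GTPase of outer mitochondrial membrane fusion, and H3.3-KD embryos received siRNA against *H3f3a* and *H3f3b*, the pair of genes that encode the histone variant H3.3. Each group had 3 libraries, and the labels state 5 to 10 embryos per group where the methods state 10, so the number behind each library is uncertain. A knockdown by injected siRNA is transient and incomplete, and no stable line or allele was made. The age of the females that gave these embryos is not in the labels, and the labels do not say that the libraries of a group came from separate injections, so p-values measure the spread between these libraries, which may be technical.

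Mitochondria hold their own circular genome in many copies, and all enzymes that replicate and transcribe it are encoded in the nucleus. TFAM binds and bends this DNA, packages it into nucleoids and, together with TFB2M, recruits the single-subunit polymerase POLRMT to its promoters. Replication uses the catalytic polymerase POLG with its accessory subunit POLG2 and the single-stranded DNA binding protein SSBP1, and mouse embryos before implantation are known to replicate little mtDNA while they divide the maternal stock among their cells. The study measured mtDNA copy number at the stage sequenced here and reported that it was reduced in both knockdowns. The present values concern the transcripts of the machinery, and their relation to that reduction was not tested.

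The targeted transcripts were low where the labels place the knockdown. *Mfn1* had 51.57, 22.55 and 23.77 FPKM in control and 9.54, 4.4 and 1.15 in MFN1-KD, a mean of 15.4% of control. *H3f3a* and *H3f3b* had means of 7.72% and 8.24% of control in H3.3-KD. Each target also differed from control in the other knockdown. *Mfn1* had 100.24, 89.52 and 40.02 FPKM in H3.3-KD, a mean of 235% of control. *H3f3a* and *H3f3b* had means of 69.1% and 93.3% of control in MFN1-KD. Entries above 0 FPKM numbered 21643 to 22507 in control, 15577 to 20842 in MFN1-KD, where library 3 was the lowest, and 23655 to 24820 in H3.3-KD. The read depth is not given in the sources used here. Relative to control, the median of all genes tested was -0.08 for MFN1-KD and 0.26 for H3.3-KD on the log2 scale. Median-ratio scaling moved the latter to -0.00. The median change of the 10 genes is therefore given beside that of all genes. Values of single genes are not centred on it. Of 8 markers of cumulus and granulosa cells, 7 were under 1 FPKM in every library, whereas *Amhr2* was not. The summed level of 6 blood markers was 89.7 to 140 FPKM in control, 22.3 to 89.5 for MFN1-KD and 11.8 to 18.6 for H3.3-KD, and that of 8 embryo markers was 10900 to 14200, 16900 to 20600 and 6640 to 8460 FPKM. The embryo marker *Pou5f1*, named after its values were seen, had 5.1 to 8.9 FPKM in control, 0.3 to 3.68 in MFN1-KD and 63.06 to 392.19 in H3.3-KD. Among the other embryo markers, *Dppa3* and *Sall4* had means of 54.2% and 39.7% of control in H3.3-KD, whereas *Tead4* had 246%. The part of these shifts in the results below was not tested.

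In control embryos the 10 genes spanned 2 orders of magnitude. *Ssbp1* was the most abundant at 272 ± 29.7 FPKM (SD, n = 3), above at least 94.8% of the genes tested in each control library. *Tfb2m* followed at 68.4 ± 15.2, *Polrmt* at 40.8 ± 20.6 and *Nrf1* at 40.2 ± 8.87 FPKM. *Pprc1*, *Tfam* and *Lonp1* had means of 28.8, 21.2 and 15.0 FPKM, and *Polg2* and *Polg* had 9.04 and 6.34 FPKM. *Tfb1m* was the lowest at 2.53 ± 0.371 FPKM. Within this order only the steps from *Ssbp1* to *Tfb2m* and from *Polg* to *Tfb1m* separated genes whose control libraries did not overlap.

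**Figure D1:**
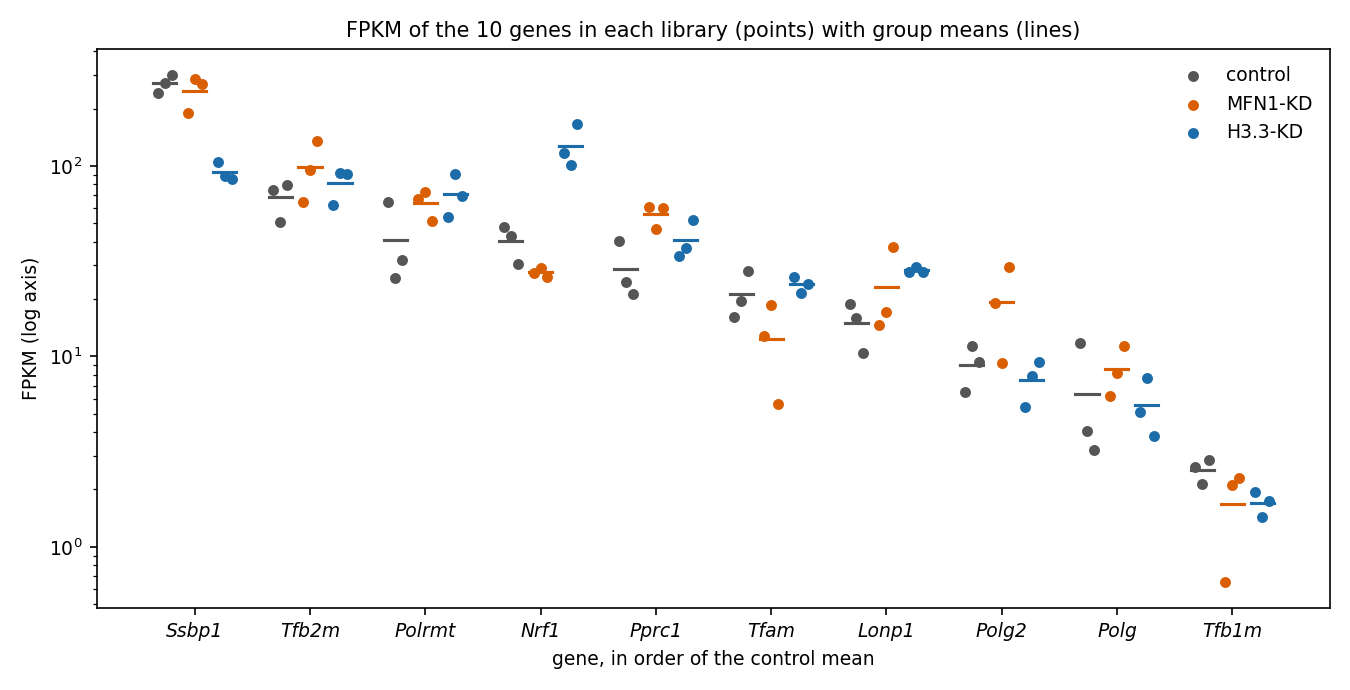
FPKM (log axis) of the 10 genes, ordered by control mean, in each of the 3 libraries of control, MFN1-KD and H3.3-KD embryos (points), with the group mean as a line. *Ssbp1* in H3.3-KD lies between 85.29 and 105.3 FPKM, below all other libraries, and *Nrf1* in H3.3-KD lies between 100.47 and 165.48 FPKM, above all other libraries.

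MFN1-KD was compared with control to ask which of these transcripts differ once *Mfn1* is depleted. With limma on log2(FPKM + 1) and Benjamini-Hochberg adjustment over all genes tested, 0 of the 10 genes passed an adjusted p of 0.05, against 3.35% of all genes, and 1 of them, *Pprc1*, had an unadjusted p under 0.05, against 23.2%. At the study's threshold, which asks for over 2-fold and an unadjusted p below 0.05, the counts were again 0 of 10 and 14.1% of all genes. Groups did not overlap for 2 genes, *Pprc1* (higher) and *Nrf1* (lower), beside 28.2% of all genes. The median log2 fold change of the 10 genes was 0.49, beside -0.08 for all genes, with 6 positive and 4 negative values. In pools of whole embryos, fewer cells of a kind and less RNA per cell cannot be told apart.

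H3.3-KD was compared with control for the same question after loss of H3.3. Here *Ssbp1* fell and *Nrf1* rose, so that 2 of the 10 genes passed the adjusted p, against 31.0% of all genes, and the same pair passed the study's threshold, against 33.3%. Groups did not overlap for 4 genes, *Nrf1* and *Lonp1* (higher) and *Ssbp1* and *Tfb1m* (lower), beside 53.4% of all genes. The median log2 fold change of the 10 genes was 0.22, close to the 0.26 of all genes. Both knockdowns were set against the same 3 control libraries.

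**Figure D2:**
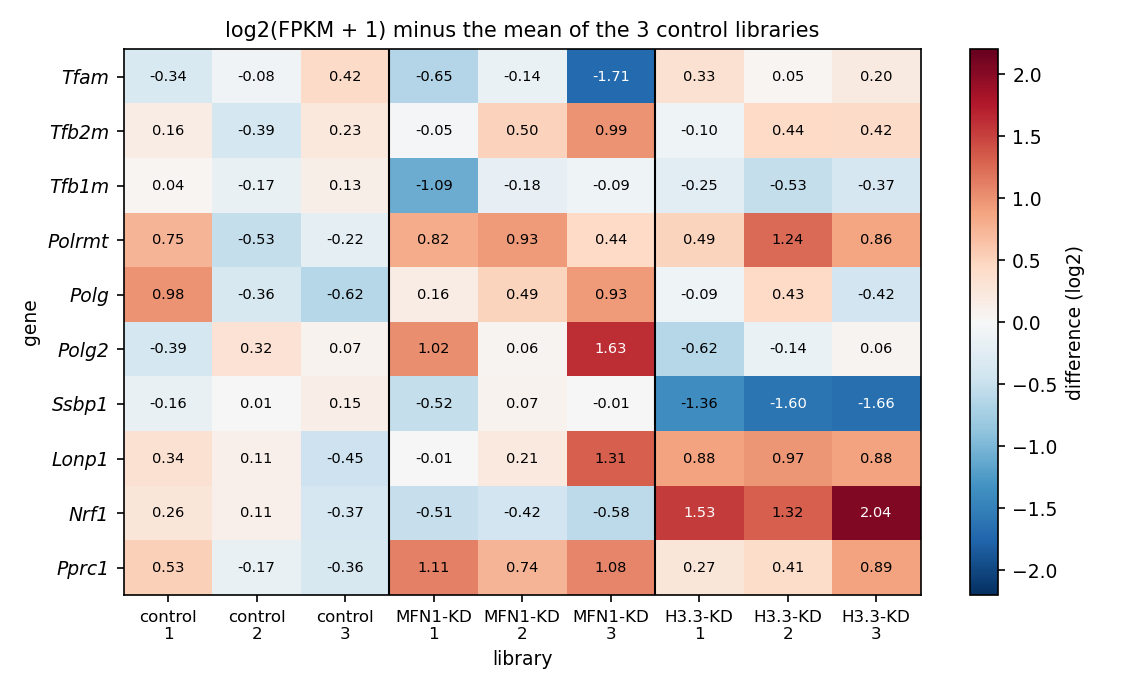
Difference of each library's log2(FPKM + 1) from the mean of the 3 control libraries for the 10 genes (rows, by role) in the 9 libraries (columns); red is higher and blue is lower. *Ssbp1* is at -1.36 to -1.66 and *Nrf1* at 1.32 to 2.04 in the 3 H3.3-KD libraries, and MFN1-KD library 3 holds the extreme values of *Tfam* (-1.71), *Polg2* (1.63) and *Lonp1* (1.31).

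*Tfam* encodes the packaging and activating factor of mtDNA (chromosome 10, 71225464 to 71238280, minus strand, mm10). Its level was 16.09, 19.52 and 28.09 FPKM in control, 12.79, 18.64 and 5.64 in MFN1-KD, and 26.19, 21.46 and 23.99 in H3.3-KD. MFN1-KD library 3 was the lowest of all, MFN1-KD libraries 1 and 3 lay below every control library, and library 2 lay among them, whereas the H3.3-KD libraries lay within the control range. The log2 fold change was -0.83 ± 0.39 (SE) in MFN1-KD (adjusted p = 0.234, limma), and without MFN1-KD library 3 it was -0.40. In H3.3-KD it was 0.19 ± 0.39 (adjusted p = 0.744), with a sign that depended on scaling, since median-ratio scaling gave -0.14, and the correction for GC content and length of transcripts gave -0.11.

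*Tfb2m* and *Tfb1m* encode paralogous proteins with a methyltransferase fold. TFB2M opens the promoter for transcription, whereas TFB1M dimethylates the small mitochondrial ribosomal RNA. *Tfb2m* (chromosome 1, 179528055 to 179546267) had 75.02, 50.99 and 79.14 FPKM in control, 64.91, 95.57 and 134.56 in MFN1-KD, and 62.58, 91.59 and 90.49 in H3.3-KD. In both knockdowns its highest libraries passed the control range and its lowest lay within it. The log2 fold changes were 0.48 ± 0.31 (adjusted p = 0.384) for MFN1-KD and 0.26 ± 0.31 (adjusted p = 0.565) for H3.3-KD, and median-ratio scaling turned the latter to -0.09.

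*Tfb1m* (chromosome 17, 3519256 to 3557781) had 2.61, 2.13 and 2.86 FPKM in control, 0.65, 2.11 and 2.3 in MFN1-KD, and 1.95, 1.43 and 1.73 in H3.3-KD. Every H3.3-KD library lay below every control library, whereas MFN1-KD library 3 lay above the lowest control library. Neither difference passed the test, with log2 fold changes of -0.45 ± 0.35 (adjusted p = 0.469) and -0.39 ± 0.35 (adjusted p = 0.435). At these levels the pseudocount of 1 compresses differences. On the opposite strand *Tiam2* overlaps *Tfb1m* over 12089 bases, and the strand setting of the quantification is not stated.

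The ratio of *Tfb2m* to *Tfb1m* was taken within each library, as a log2 ratio of FPKM + 1. It was 4.40, 4.05 and 4.38 in control, 5.32, 4.96 and 5.36 in MFN1-KD, and 4.43, 5.25 and 5.07 in H3.3-KD. All 6 knockdown libraries lay above the 3 control libraries, although H3.3-KD library 1 did so by little. The means differed from control by 0.94 for MFN1-KD and by 0.64 for H3.3-KD, each with an exact two-sided permutation p of 0.1, which is the smallest that 3 against 3 libraries can give. With a pseudocount of 0.1 the differences were 1.21 and 0.81, each with p = 0.1, and with median-ratio scaling, added after seeing the data, they were 0.97 (exact permutation p = 0.1) and 0.51 (p = 0.3).

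*Polrmt* encodes the mitochondrial RNA polymerase, which also makes the primers of mtDNA replication (chromosome 10, 79736123 to 79746581). It had 64.24, 25.92 and 32.18 FPKM in control, 67.37, 72.93 and 51.6 in MFN1-KD, and 53.58, 90.6 and 69.36 in H3.3-KD. Control library 1 reached into the range of both knockdowns, and the other control libraries lay below all 6 knockdown libraries. The log2 fold change was 0.73 ± 0.35 (adjusted p = 0.238) for MFN1-KD and 0.86 ± 0.35 (adjusted p = 0.083) for H3.3-KD. Without control library 1 the H3.3-KD value was 1.24 (adjusted p = 0.0164), whereas a fit in which every library had been corrected for the GC content and length of transcripts gave -0.54. *Polrmt* has a GC content of 60.5%, the highest of the 10 genes, where the median of the genes tested is 48.9%.

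The ratio of *Tfam* to *Polrmt* on the log2 scale was -1.93, -0.39 and -0.19 in control, -2.31, -1.91 and -2.99 in MFN1-KD, and -1.01, -2.03 and -1.49 in H3.3-KD. MFN1-KD library 2 lay just above control library 1, which stood apart from the other control libraries. The differences of the means were -1.56 for MFN1-KD and -0.67 for H3.3-KD, with exact permutation p-values of 0.2 and 0.3.

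*Polg* (chromosome 7, 79446231 to 79466362), the catalytic subunit of the mtDNA polymerase, had 11.74, 4.06 and 3.22 FPKM in control, 6.22, 8.13 and 11.38 in MFN1-KD, and 5.08, 7.74 and 3.83 in H3.3-KD. The control libraries differed 3.65-fold among themselves, and all 6 knockdown libraries lay within their range. The log2 fold change was 0.53 ± 0.45 (adjusted p = 0.521) for MFN1-KD and -0.03 ± 0.45 (adjusted p = 0.975) for H3.3-KD. Without control library 1 these values were 1.02 and 0.46. *Fanci* overlaps *Polg* on the opposite strand over 4034 bases.

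*Polg2* (chromosome 11, 106768253 to 106779537) encodes the accessory subunit, which raises the processivity of POLG. It had 6.52, 11.28 and 9.32 FPKM in control, 18.96, 9.26 and 29.46 in MFN1-KD, and 5.42, 7.93 and 9.29 in H3.3-KD. MFN1-KD libraries 1 and 3 exceeded all control libraries, library 2 lay among them, and the H3.3-KD range overlapped the control range at its lower end. The log2 fold changes were 0.90 ± 0.42 (adjusted p = 0.223) and -0.23 ± 0.42 (adjusted p = 0.71). *Milr1* overlaps *Polg2* on the opposite strand over 542 bases. It had means of 7.84, 9.82 and 4.37 FPKM in control, MFN1-KD and H3.3-KD, and its part in the *Polg2* values was not tested. The log2 ratio of *Polg2* to *Polg* had means of 0.60 ± 1.18 (SD, n = 3) in control, 0.98 ± 0.71 for MFN1-KD and 0.40 ± 0.60 for H3.3-KD, with overlapping groups and exact permutation p-values of 0.5 and 0.8.

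**Figure D3:**
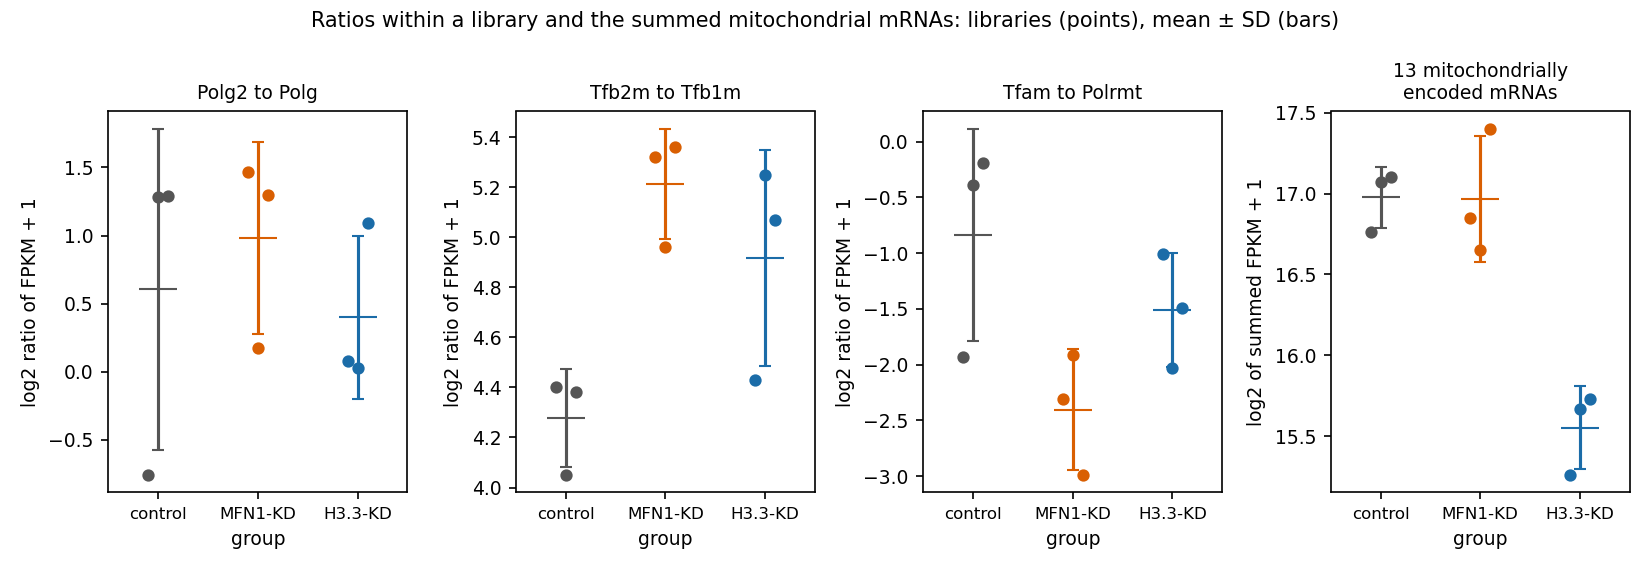
Log2 ratios of FPKM + 1 within a library for *Polg2* to *Polg*, *Tfb2m* to *Tfb1m* and *Tfam* to *Polrmt*, and log2 of the summed FPKM of the 13 mitochondrially encoded mRNAs, in each library (points) with group mean ± SD (bars, n = 3). The *Tfb2m* to *Tfb1m* ratio of all 6 knockdown libraries lies above the 3 control libraries in the values as deposited, and the summed mitochondrial mRNAs of the 3 H3.3-KD libraries lie below all others.

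*Ssbp1* encodes the protein that coats single-stranded mtDNA at the replication fork (chromosome 6, 40471352 to 40484700, plus strand). It had 241.97, 273.88 and 301.28 FPKM in control, 188.37, 285.65 and 268.69 in MFN1-KD, and 105.3, 88.75 and 85.29 in H3.3-KD. The 3 H3.3-KD libraries lay far below the other 6 libraries and varied little among themselves, whereas MFN1-KD overlapped control. The H3.3-KD mean was 34.2% of control, a log2 fold change of -1.54 ± 0.22 (SE; adjusted p = 0.00073, limma), lower in 3 of 3 libraries. This call was kept in 19 of 19 alternatives, with values from -1.97 to -1.46 and an adjusted p of at most 0.00597. With the GC and length trend removed the value was -1.55. In MFN1-KD the log2 fold change was -0.15 ± 0.22 (adjusted p = 0.715). No annotated gene overlaps *Ssbp1*.

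*Lonp1* encodes the matrix AAA+ protease that degrades TFAM not bound to DNA (chromosome 17, 56614297 to 56626887). It had 18.78, 15.84 and 10.41 FPKM in control, 14.52, 17.08 and 37.63 in MFN1-KD, and 27.67, 29.57 and 27.65 in H3.3-KD. All H3.3-KD libraries lay above all control libraries and within 1.07-fold of each other. In H3.3-KD the log2 fold change was 0.91 ± 0.37 (adjusted p = 0.0845), and 3 of 19 alternatives called it, among them the fit without MFN1-KD library 3 (adjusted p = 0.0216). With the GC and length trend removed it was -0.17, and *Lonp1* has a GC content of 56.5%. In MFN1-KD only library 3 exceeded the control range, and the log2 fold change of 0.50 ± 0.37 (adjusted p = 0.442) became 0.10 without it.

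*Nrf1* encodes nuclear respiratory factor 1, a transcription factor that binds promoters of respiratory chain genes and of *Tfam* (chromosome 6, 30047988 to 30153458, plus strand). This gene is distinct from *Nfe2l1*, whose product is also called NRF1. It had 47.63, 42.69 and 30.4 FPKM in control, 27.49, 29.26 and 26.19 in MFN1-KD, and 116.45, 100.47 and 165.48 in H3.3-KD. The H3.3-KD libraries were the 3 highest and the MFN1-KD libraries the 3 lowest of the 9. The H3.3-KD mean was 3.17 times that of control, and the log2 fold change was 1.63 ± 0.26 (adjusted p = 0.00147), higher in 3 of 3 libraries. The call was kept in 19 of 19 alternatives, with values from 1.21 to 1.79 and an adjusted p of at most 0.0127. With the GC and length trend removed the value was 1.27. In MFN1-KD the log2 fold change was -0.50 ± 0.26 (adjusted p = 0.285), a difference that did not pass the test although the groups did not overlap.

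*Pprc1* encodes a coactivator of the PGC-1 family that binds NRF1 (chromosome 19, 46044886 to 46072915). It had 40.51, 24.49 and 21.29 FPKM in control, 60.78, 46.86 and 59.8 in MFN1-KD, and 33.5, 37.15 and 51.98 in H3.3-KD. All MFN1-KD libraries lay above all control libraries, and the H3.3-KD libraries overlapped control library 1. In MFN1-KD the log2 fold change was 0.98 ± 0.30, higher in 3 of 3 libraries, with an unadjusted p of 0.00769 and an adjusted p of 0.0906 (limma). The adjusted p ranged from 0.0232 to 0.294 over 19 alternatives and passed under library weights alone. In H3.3-KD the log2 fold change was 0.52 ± 0.30 (adjusted p = 0.21) and turned to -0.44 with the GC and length trend removed. *Ldb1* overlaps *Pprc1* on the opposite strand over 329 bases and had means of 4.6, 1.92 and 72.6 FPKM in control, MFN1-KD and H3.3-KD, and its part in the *Pprc1* values was not tested.

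**Figure D4:**
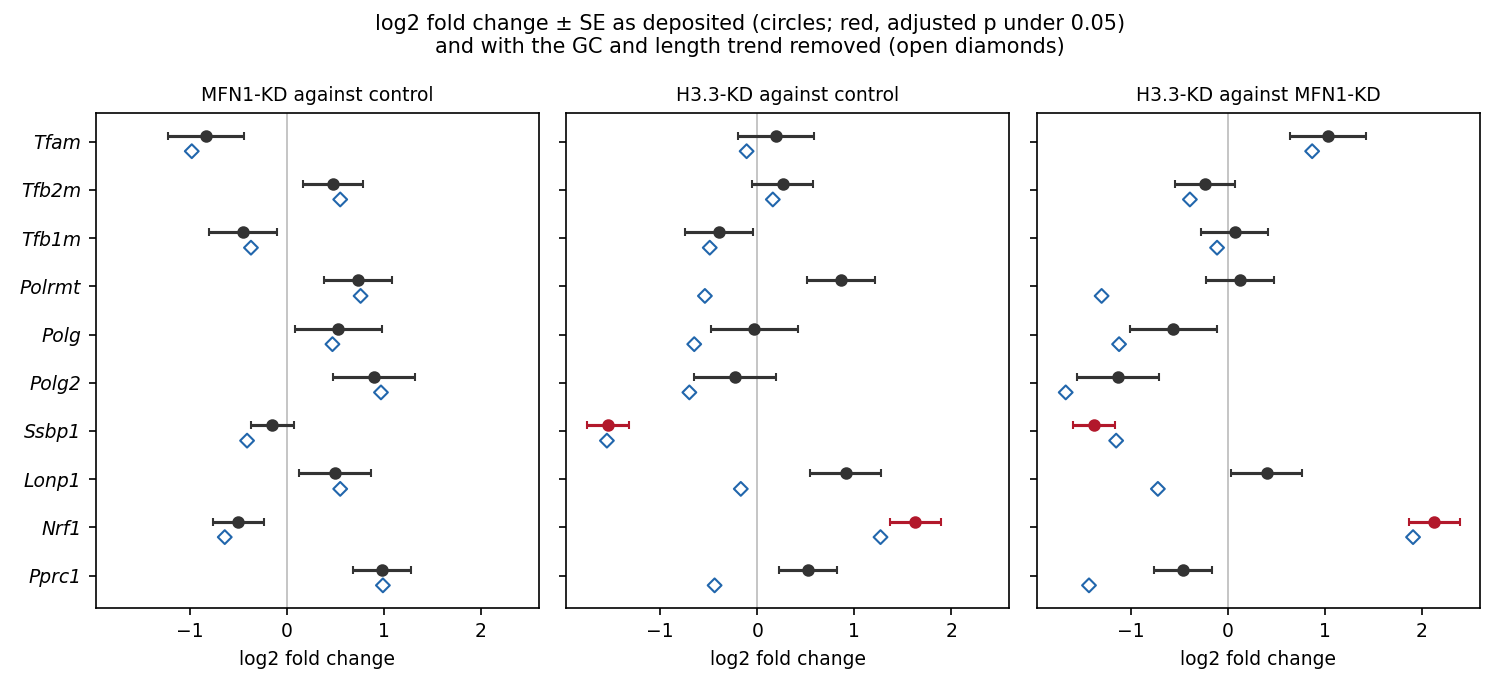
Log2 fold change ± SE from limma on log2(FPKM + 1) (circles, red at an adjusted p under 0.05) and the value after removal of each library's GC and length trend (open diamonds) for the 10 genes in the 3 comparisons. *Ssbp1* and *Nrf1* are called in both comparisons that include H3.3-KD and keep their direction after the correction, whereas *Polrmt*, *Lonp1*, *Pprc1* and *Tfam* change sign in H3.3-KD against control.

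The correction for GC content and length moved the median of the 10 genes in H3.3-KD, although not every gene moved alike. Before it, 6 of the 10 genes had positive and 4 had negative log2 fold changes. Their median was then 0.22, and that of all genes was 0.26. After the correction, 2 of the 10 were positive (*Nrf1* at 1.27 and *Tfb2m* at 0.16) and 8 negative. The median was then -0.46 for the 10 genes and -0.02 for all genes. In MFN1-KD the same correction left 6 positive and 4 negative values, with a median of 0.51, beside 0.02 for all genes. The GC-rich genes *Polrmt*, *Lonp1* and *Pprc1* (55.9% to 60.5% GC) moved most in H3.3-KD, and *Ssbp1* (41.0% GC) moved least.

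H3.3-KD was then set directly against MFN1-KD, which tests whether the effects of the knockdowns differ, since the shared control cancels. Again 2 of 10 genes passed the adjusted p, against 38.6% of all genes: *Nrf1* at 2.13 ± 0.26 (adjusted p = 0.000238) and *Ssbp1* at -1.38 ± 0.22 (adjusted p = 0.000897). Both were kept in 19 of 19 alternatives. *Tfam* at 1.03 ± 0.39 (adjusted p = 0.0611) and *Polg2* at -1.13 ± 0.42 (adjusted p = 0.0524) also passed the study's threshold, which 40.1% of all genes did. For *Tfam* the 3 H3.3-KD libraries lay above the 3 MFN1-KD libraries, whereas for *Polg2* the ranges touched, at 9.29 FPKM for H3.3-KD and 9.26 for MFN1-KD. Groups did not overlap for 3 of 10 genes, beside 47.9% of all genes. The median log2 fold change was -0.08 for the 10 genes and 0.39 for all genes. The results for *Tfam* and *Polg2* depended on which library was left out. Without MFN1-KD library 3 *Tfam* was at 0.59 (adjusted p = 0.16) and *Polg2* at -0.77 (adjusted p = 0.145), and neither passed the study's threshold. Without MFN1-KD library 2 they were at 1.37 (adjusted p = 0.0199) and -1.56 (adjusted p = 0.0101). Without H3.3-KD library 1 *Tfam* was at 0.96 (adjusted p = 0.142), and 2 of the 10 genes passed the study's threshold. Under median-ratio and upper-quartile scaling *Tfam* was at 0.64 and 0.57. With the GC and length trend removed, 5 of the 10 genes were called, against 28.2% of all genes in that fit, *Nrf1*, *Ssbp1*, *Polg2* at -1.67, *Pprc1* at -1.43 and *Polrmt* at -1.30, the last of which was 0.13 as deposited.

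The order of levels changed with these shifts. In MFN1-KD it ran as in control from *Ssbp1* at 248 FPKM through *Tfb2m* and *Polrmt*, followed by *Pprc1*, which lay above *Nrf1* without overlap. In H3.3-KD *Nrf1* came first at 127 ± 33.9 FPKM (SD, n = 3) and *Ssbp1* second at 93.1 ± 10.7, and their ranges overlapped. *Tfb2m* and *Polrmt* followed at 81.6 and 71.2 FPKM, and *Tfb1m* was again the lowest at 1.70 FPKM.

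The gene nearest to each of the 10 in profile was sought among the 5933 genes that averaged 10 FPKM or more, by the root mean square distance of gene-centred log2(FPKM + 1) over the 9 libraries. *Pprc1* was nearest to *Cdk12* (distance 0.109), *Ssbp1* to *Ccdc58* (0.132) and *Nrf1* to *Wdr45b* (0.132). *Polg* had the most distant neighbour, *Nckap1*, at 0.272. These are descriptions over 9 libraries in 3 groups and carry no test.

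Promoters of the 10 genes were read from RefSeq (GRCm38.p6, 250 bases before to 50 after each start), which held 11 of them among 32851, with a pair for *Nrf1*. Short motifs were searched on both strands. The palindromic NRF1 motif was found in 0 of the 11 and in 0.971% of all promoters, and a shifted form that overlaps it in 0 of the 11 and in 1.0%. A looser NRF1 motif with 1 free base at its centre was added after these had matched none, and it was found in *Polrmt* and in 4.6% of all promoters. The GABPA motif CCGGAAGT was found in *Tfam* and *Polg* (3.89% of all), and the E-box CACGTG in *Lonp1* (7.15% of all). The matches upstream of a start are shown in capitals on the strand of the gene, for the regions chr10:71238073-71238102, chr7:79466293-79466322 and chr17:56626922-56626951.
*Tfam*: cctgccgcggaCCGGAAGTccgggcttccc
*Polg*: gaggacctcacCCGGAAGTccctctgcacc
*Lonp1*: cgcgagcgtcatCACGTGcgcaaacggggg
The matches began at positions -47, -38 and -36 from the RefSeq starts. By the gene positions given above, which are from GENCODE, those of *Tfam* and *Polg* lie inside the annotated gene. The match of *Lonp1* lies upstream of its annotated gene. A match of letters does not show binding, and none of these genes passed the test against control.

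The sequences upstream of the called genes, *Ssbp1* and *Nrf1*, are shown because these were the genes that moved in H3.3-KD, with CpG dinucleotides in capitals, a feature chosen after their values were seen. They end at the base before the annotated gene and cover chr6:40471218-40471351 and chr6:30047738-30047987, both on the plus strand of GRCm38.p6.
*Ssbp1*: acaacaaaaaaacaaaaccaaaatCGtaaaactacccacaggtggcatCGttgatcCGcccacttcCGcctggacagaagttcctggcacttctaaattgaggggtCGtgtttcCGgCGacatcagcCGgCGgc
*Nrf1*: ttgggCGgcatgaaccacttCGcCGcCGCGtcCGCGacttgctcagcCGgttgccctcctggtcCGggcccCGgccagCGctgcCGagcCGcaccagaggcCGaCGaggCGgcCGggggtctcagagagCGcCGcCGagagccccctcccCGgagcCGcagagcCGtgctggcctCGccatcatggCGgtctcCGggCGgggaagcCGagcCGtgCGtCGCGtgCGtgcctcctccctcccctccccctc
The stretch of *Ssbp1* is 134 bases long with 9 CpG dinucleotides and 51.5% GC, and that of *Nrf1* is 250 bases long with 33 CpG dinucleotides and 76.0% GC. Over the 250 bases before the RefSeq start *Ssbp1* had 23, and the other *Nrf1* promoter had 2, where the median of all promoters was 6. The promoters of the listed genes that were not called in H3.3-KD also lay above this median, from 8 in *Pprc1* to 26 in *Tfb2m*. No measurement of promoter state was used here.

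Other genes of mtDNA maintenance were taken from lists, and counts of genes past the adjusted p are read against 21.8% of all genes higher and 9.12% lower in H3.3-KD, or, with the GC and length trend removed, against 11.6% higher and 12.2% lower. Of 11 further genes of mtDNA replication and repair, 5 rose and 0 fell in H3.3-KD. *Endog*, a mitochondrial nuclease, rose from 30.9 ± 11.2 to 245 ± 23.2 FPKM (log2 fold change 3.01, adjusted p = 0.000852) and *Twnk*, the replicative helicase, from 5.15 ± 0.408 to 25.2 ± 7.59 FPKM (2.05, adjusted p = 0.000981). With the GC and length trend removed this pair was still called, *Endog* at 1.85, and the other 3 were not. Of 12 genes of nucleotide supply, *Rrm2*, a subunit of ribonucleotide reductase, was higher (1.05, adjusted p = 0.015) and *Suclg1*, a subunit of succinyl-CoA ligase, was lower (-1.24, adjusted p = 0.0215), and these were called in 13 and 15 of 19 alternatives. After the correction 1 gene of this list was higher and 3 were lower.

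Among 25 genes of mitochondrial RNA transcription and processing, 3 rose and 2 fell in H3.3-KD, and 0 and 2 of 24 after the correction for GC and length. *Tbrg4* (1.51, adjusted p = 0.00368) and *Elac2*, which cuts the 3′ ends of tRNA precursors (1.52, adjusted p = 0.00498), rose, and after the correction they were at 0.42 and 0.53 and not called. *Slirp*, which stabilizes mitochondrial mRNAs, fell from 265 ± 57.4 to 101 ± 53.4 FPKM (-1.54, adjusted p = 0.0173) and was called in 16 of 19 alternatives. Of 10 regulators of mitochondrial biogenesis, 2 were higher, and *Esrra*, a nuclear receptor that works with PGC-1 coactivators, rose from 2.45 ± 0.445 to 33.1 ± 11.1 FPKM (3.27, adjusted p = 0.000168, called in 19 of 19 alternatives). Of 10 proteases of the matrix and inner membrane, 5 were higher, of which *Pmpca*, a subunit of the processing peptidase, rose by 1.71 on the log2 scale (adjusted p = 0.00196). After the correction 1 protease was higher and 1 lower, shares close to those of all genes.

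In MFN1-KD these lists held few calls, beside 1.15% of all genes higher and 2.2% lower. None of the 11 genes of replication and repair and none of the 12 of nucleotide supply passed. *Mterf1b*, a paralogue of a mitochondrial transcription termination factor, was lower at -1.76 (adjusted p = 0.0477), *Clpp*, a matrix protease subunit, was lower at -1.58 (adjusted p = 0.047), and *Yy1*, a zinc finger transcription factor, was higher at 1.55 (adjusted p = 0.0404). With the GC and length trend removed their adjusted p-values were 0.0525, 0.0613 and 0.0518, above the threshold, and they were called in 4 of 18, 6 of 19 and 8 of 19 alternatives.

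**Figure D5:**
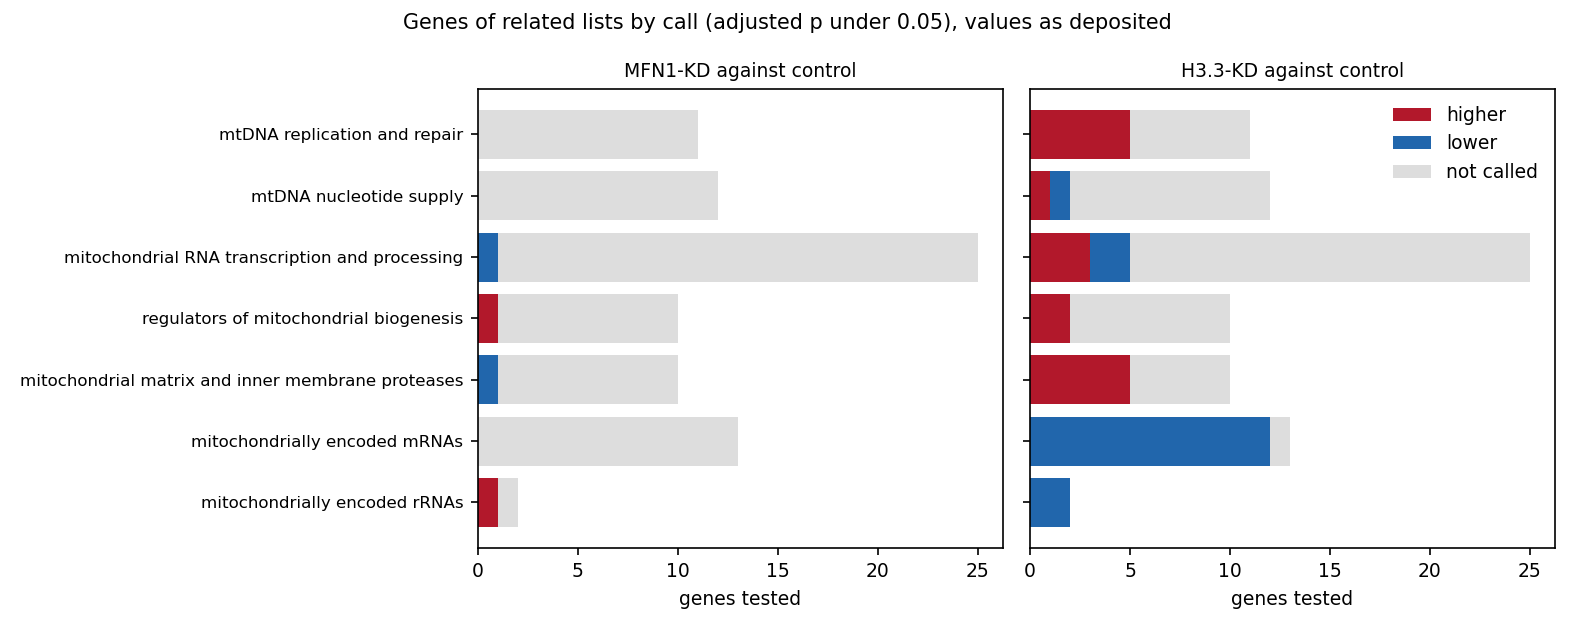
Number of genes tested in each related list that were higher (red), lower (blue) or not called (grey) at an adjusted p under 0.05 in MFN1-KD and H3.3-KD against control, with values as deposited. In H3.3-KD 12 of 13 mitochondrially encoded mRNAs were lower and 5 of 11 genes of mtDNA replication and repair higher, and after the GC and length trend was removed these counts were 9 and 2, where 12.2% of all genes were lower and 11.6% higher.

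The transcripts that this machinery makes were given 1 value per library. The 13 mitochondrially encoded mRNAs summed to 9.97% to 10.6% of all FPKM in control, 9.07% to 14.4% for MFN1-KD and 4.11% to 5.81% for H3.3-KD. The H3.3-KD libraries lay below all others. As a share of all FPKM their mean of log2 values was 2.06-fold lower than control (exact permutation p = 0.1). As a plain sum of FPKM, not divided further by the library's summed FPKM, it was 2.68-fold lower (exact permutation p = 0.1). Both p-values are the smallest possible. MFN1-KD differed from control by 0.08 as a log2 share (p = 0.9, exact permutation) and by -0.01 as a log2 sum (p = 1.0), and its libraries overlapped control. Of the 13, 12 were lower in H3.3-KD (limma), and 9 after the correction for GC and length. Both mitochondrial rRNAs were also lower in H3.3-KD, *mt-Rnr1* at -1.61 (adjusted p = 0.000573) and *mt-Rnr2* at -2.67 (adjusted p = 1.48e-05). With the GC and length trend removed *mt-Rnr1* was at -0.84 and *mt-Rnr2* at -2.19, and both were still called. The cDNA was primed with oligo-dT, and the part of this in the rRNA values was not tested. In MFN1-KD *mt-Rnr1* was higher, from 6000 ± 1750 to 11900 ± 1560 FPKM (1.02, adjusted p = 0.0404), and was called in 7 of 19 alternatives, while the other rRNA and the 13 mRNAs did not pass.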

How the data were processed

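RNA-seq of 9 libraries was analysed, 3 per group as named in the sample titles. Per the labels and the study's methods, cDNA was primed with oligo-dT, amplified by PCR (Smart-Seq2) and sequenced in pairs, reads were trimmed with cutadapt 1.16 and mapped to mm10 with STAR, and DESeq2 was the authors' test. The authors deposited FPKM, as the file headers say, with 2 decimals. The FPKM program, annotation release and strand setting are not given in the sources used here. Counts were not recovered from the decimals, so depth is unknown and no count model was run here.

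log2(FPKM + 1) of the 13011 genes averaging 1 FPKM or more was fitted in limma 3.58.1 (R 4.3.3; trend and robust options), with 3 group means, 9 libraries and no covariate, and p-values were adjusted by Benjamini-Hochberg over all genes tested. The script was tested on simulated data. Exact two-sided permutation tests were used for single values per library. Positions, GC content and lengths came from GENCODE M21 (GRCm38), for 98.5% of the genes tested. GC content and length were those of the longest annotated transcript of each gene, which need not be the one expressed. The alternatives changed the scaling (median-ratio or upper-quartile), the filter (none, or an average of 10 FPKM or more), the pseudocount (0.1) and the libraries (each left out in turn, or a fit to the 6 compared), added a replicate block or library weights, or removed the GC and length trend of each library by splines (5 degrees of freedom each). All 10 genes are named. From each list at most the 3 genes with the smallest p are named, among those with an adjusted p under 0.05, more than 2-fold and no overlap between groups. The genes and lists were chosen with earlier results of these data known. Python 3.11.15, numpy 2.4.6, pandas 2.3.3, scipy 1.17.1 and matplotlib 3.10.9 were used.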

Additional observations from a re-analysis of the deposited data

Results flagged for a closer look

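*Ssbp1* and *Nrf1* stand out because the effects of the knockdowns differed by a test of the difference itself, H3.3-KD against MFN1-KD, in which the shared control cancels. For *Ssbp1* the difference was -1.38 on the log2 scale (SE 0.22, adjusted p = 0.000897, limma), with all 3 H3.3-KD libraries below all 3 MFN1-KD libraries, and its adjusted p was at most 0.0103 over 19 alternatives. For *Nrf1* it was 2.13 (SE 0.26, adjusted p = 0.000238), with all 3 H3.3-KD libraries above all 3 MFN1-KD libraries and an adjusted p of at most 0.00214. The same test called 38.6% of all genes. Groups of 3 libraries were not examined for outliers.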

How the results depend on the processing

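The calls of *Ssbp1* and *Nrf1* in H3.3-KD, against control and against MFN1-KD, were kept in all 19 alternatives. The count of genes called among the 10 in MFN1-KD against control was 1 under library weights (*Pprc1*), where 10.7% of all genes were called, and 0 otherwise. At the study's threshold it was 1 under median-ratio scaling, upper-quartile scaling or a pseudocount of 0.1 and 2 under library weights, and ranged from 0 to 3 with a library left out, with 3 each without control replicate 1 (*Polrmt*, *Polg*, *Pprc1*) and without MFN1-KD replicate 2 (*Tfam*, *Polg2*, *Pprc1*). In H3.3-KD against control 5 genes were called under library weights, as were 53.6% of all genes, and with a library left out 2 to 3 were called and 2 to 4 passed the study's threshold. In H3.3-KD against MFN1-KD the count was 4 under either scaling (37.3% of all genes) or a mean of at least 10 FPKM (50.2%) and 5 with the GC and length trend removed (28.2%), with or without the replicate block. With a library left out it was 2 to 4 by either criterion.

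Signs turned for genes that were not called as deposited. Of these turned values, that of *Polrmt* in H3.3-KD against MFN1-KD with the GC and length trend removed was itself called (-1.30, adjusted p = 0.00825, limma). In H3.3-KD against control *Tfam* became -0.14 and -0.22 under median-ratio and upper-quartile scaling and *Tfb2m* -0.09 and -0.17, and removal of the GC and length trend, with or without the block, gave -0.11 for *Tfam*, -0.54 for *Polrmt*, -0.17 for *Lonp1* and -0.44 for *Pprc1*. Library weights gave 0.44 for *Polg*. In H3.3-KD against MFN1-KD *Tfb1m* became -0.19 and -0.22 and *Polrmt* -0.28 and -0.35 under the scalings, *Lonp1* became -0.07 under upper-quartile scaling, and removal of the trend, with or without the block, gave -0.11 for *Tfb1m*, -1.30 for *Polrmt* and -0.72 for *Lonp1*. Library weights gave 0.02 for *Tfb2m*. The cause of these turns was not tested.

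With a library left out, values crossed 0 for *Polg* in H3.3-KD (-0.34 to 0.46), *Ssbp1* in MFN1-KD (-0.27 to 0.03) and, between the knockdowns, *Polrmt* (-0.05 to 0.32), *Tfb1m* (-0.25 to 0.25) and *Tfb2m* (-0.49 to 0.03). So did the log2 ratio of *Polg2* to *Polg* (-0.31 to 0.78 in MFN1-KD and -0.88 to 0.14 in H3.3-KD) and the summed mitochondrial mRNAs in MFN1-KD (-0.23 to 0.15), which were at 0.08 as a share of all FPKM, a setting added after seeing the data.

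The correlation of deviations between libraries of the same replicate number ranged from -0.05 to 0.16, with 2 of 9 pairs over 0.1. Between libraries of different numbers it ranged from -0.12 to 0.07, with 0 of 18 pairs over 0.1. Correlations this weak cannot settle whether the replicate numbers pair the libraries. With the replicate block the counts were 0, 2 and 2 called genes, as without it. The *Tfb2m* to *Tfb1m* differences were then 0.94 and 0.64, each with p = 0.25 by exact sign changes of the 3 pairs. This p is the smallest that 3 pairs can give. A mean of at least 10 FPKM left out *Polg* and *Tfb1m*. Over all genes the adjusted calls in MFN1-KD were 436 and ranged from 0 to 1393 over the alternatives, those in H3.3-KD were 4028 and ranged from 2432 to 6980, and the share of higher calls in H3.3-KD moved from 70.5% to 53.9% under median-ratio and 49.0% under upper-quartile scaling. Read depth is unknown, so the counting error of the low genes *Tfb1m* and *Polg* cannot be given.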
